A study of Homo sapiens with 8 samples.

Results

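CD93, CLEC14A, CD248 and THBD encode the 4 receptors of C-type lectin group 14, and MMRN1 and MMRN2 encode the 2 multimerins, large secreted glycoproteins of the EMILIN family. Every probe set annotated to exactly 1 of these 6 symbols was taken, which gave 11 of 54613 probe sets and 6 of 19775 genes on the array. There were 2 for CD93, 1 for CLEC14A, 1 for CD248, 3 for THBD, 1 for MMRN1 and 3 for MMRN2. They were followed on 8 arrays of H9, a human embryonic stem cell line in wide use. Undifferentiated cells were taken unsorted at day 0, and cells carrying KDR (the main VEGF receptor) together with CD31 (the PECAM1 protein) were sorted by flow cytometry after 4, 6 or 8 days in serum-free haematopoietic medium containing BMP4. Each of the 4 groups had 2 arrays that the labels call biological replicates, with no word on whether they came from separate cultures, and p-values then measure only the spread between these arrays, which may be technical. The line was kept on feeder layers of mouse fibroblasts, and the day 0 cells were not sorted, so that sorting and day cannot be told apart in any comparison with day 0.

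The group 14 receptors share an N-terminal C-type lectin domain, EGF-like repeats and 1 membrane-spanning segment. CD93 and CLEC14A are receptors of endothelium that act in cell adhesion, migration and vessel sprouting, and CD93 is also found on myeloid cells. CD248, or endosialin, is known from pericytes and fibroblasts rather than endothelium. THBD, or thrombomodulin, holds thrombin on the endothelial surface and turns it toward activation of protein C, an anticoagulant. MMRN2 is an endothelial matrix protein that binds CD93, CLEC14A and CD248, while MMRN1 is stored in platelets and endothelium and carries coagulation factor V.

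The bases just upstream of the annotated starts are shown for the members found in a RefSeq promoter table (GRCh38.p14), because these genes were higher in sorted cells together. Capitals mark AGGAAG or CGGAAG, read on either strand, which are forms of the site recognised by ETS factors such as ERG and FLI1. The windows are 250 bases long and end at the base before the start.
MMRN2, chr10:86957616-86957865, minus strand: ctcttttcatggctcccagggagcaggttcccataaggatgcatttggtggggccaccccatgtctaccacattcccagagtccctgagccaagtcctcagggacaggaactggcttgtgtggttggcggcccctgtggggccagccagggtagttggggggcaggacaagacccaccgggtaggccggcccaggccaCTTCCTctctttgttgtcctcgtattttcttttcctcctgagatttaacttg
MMRN1, first start, chr4:89879261-89879510, plus strand: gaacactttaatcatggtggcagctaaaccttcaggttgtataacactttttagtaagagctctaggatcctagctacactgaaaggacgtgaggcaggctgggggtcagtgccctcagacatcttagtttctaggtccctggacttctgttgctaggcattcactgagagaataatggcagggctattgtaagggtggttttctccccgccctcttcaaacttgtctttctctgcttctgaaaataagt
MMRN1, second start, chr4:89894604-89894853, plus strand: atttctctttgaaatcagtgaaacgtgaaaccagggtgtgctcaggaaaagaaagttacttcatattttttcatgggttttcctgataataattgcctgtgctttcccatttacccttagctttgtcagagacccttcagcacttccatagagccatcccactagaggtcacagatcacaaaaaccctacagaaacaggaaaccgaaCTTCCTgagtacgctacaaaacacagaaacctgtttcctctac
CLEC14A, chr14:38256094-38256343, minus strand: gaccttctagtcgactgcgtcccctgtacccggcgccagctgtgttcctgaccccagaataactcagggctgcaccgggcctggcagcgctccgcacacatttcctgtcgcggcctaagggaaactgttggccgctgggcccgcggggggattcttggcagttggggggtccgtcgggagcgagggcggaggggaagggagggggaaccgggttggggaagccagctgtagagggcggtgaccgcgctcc
MMRN2 held 1 such match, beginning 52 bases before the start, and the second start of MMRN1 held 1, beginning 43 bases before it. None was found in the windows of the first MMRN1 start and of CLEC14A. Of 35116 windows of this length in the table, 40.8% held at least 1 match, so a match in 2 of 4 windows is a description and no site. The GATA motif AGATAA, which 9.2% of all windows held, was in none of the 4. The letters CACCC, a core of KLF sites, were in the MMRN2 window and both MMRN1 windows and in 54.7% of all windows. The MMRN1 window at the second start is the poorest in G and C (41.6%), and the CLEC14A window the richest (68.0%). CD93, THBD and CD248 were not shown. In the reference gene table CD93 and THBD are immediate neighbours among protein-coding genes.

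Values are log2(intensity + 32), from the intensity deposited for each probe set, and are called log2 levels below. The array medians lay between 88.8 and 93.3 intensity units, or 6.92 and 6.97 as log2 levels. Probe sets above the array median on at least 2 arrays were tested, 30343 in all and 10 of the 11 members. The first replicates of day 4 and day 6 each lay far from the second: 9.31% of probe sets tested lay over 2-fold apart between the arrays of each of these days, while the share was 2.11% for the day 8 pair and 0.00659% for the day 0 pair. For ACTB, whose 3' signal over its 5' signal grows as RNA breaks down, that quotient was 19 and 31 there, while the other 6 arrays had 8.92 to 16. These are called below the 2 arrays that stood apart. A share within a pair cannot say which of its arrays departed, so the name rests on the ACTB quotient. The ratio for GAPDH was 2.22 and 3.73 on the 2 arrays so named and 1.71 to 3.41 on the others, so it did not set the day 4 array apart. Differences between days that change most without these arrays are also given without them. Since the arrays measure RNA of sorted populations in bulk, fewer cells of a type and less RNA per cell cannot be told apart. Of 18 endothelial markers, 15, 16 and 16 rose on the 3 sorted days against day 0 (limma, adjusted p under 0.05). The median changes were 4.41, 4.07 and 4.41 on the log2 scale. The list holds KDR and PECAM1, for which the cells were sorted, and was chosen with earlier results known. It thus describes the gate and is no check of it. The sorted antigen gene PECAM1 rose by 6.42 at day 4 and CDH5, the cadherin of endothelial junctions, by 6.99 (adjusted p = 0.000126 and 0.000152, limma). Of 11 markers of undifferentiated cells, 10, 10 and 11 fell, led at day 4 by the pluripotency factor SOX2, by L1TD1 and by the factor NANOG, which fell by 6.54, 6.09 and 5.48 (adjusted p = 0.00596, 0.000113 and 1.69e-05, limma). Among all probe sets tested, 6.29%, 7.92% and 8.3% rose and 8.11%, 10.7% and 11% fell, with a median change of 0.02, 0.01 and 0.

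CD93 was far higher in sorted than in unsorted cells. Probe set 202878_s_at had log2 levels of 5.84 and 6.30 (day 0), 12.19 and 13.31 (day 4), 11.55 and 13.71 (day 6) and 13.27 and 13.53 (day 8). All 6 sorted arrays were far above both day 0 arrays, and the pair at day 6 was the widest. The second CD93 probe set, 202877_s_at, had log2 levels of 6.99 and 7.47 (day 0), 9.61 and 11.09 (day 4), 8.53 and 10.79 (day 6) and 11.08 and 10.92 (day 8). It showed the same order of arrays at day 4 and day 6, with a smaller distance from day 0. The change of CD93 at day 4 against day 0 was 6.68 ± 0.70 (SE) by the first probe set and 3.12 ± 0.77 by the second, so that the size depends on the probe set.

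CLEC14A was the endothelial member with the smallest change. Its probe set 226244_at had log2 levels of 6.77 and 6.70 (day 0), 7.39 and 8.90 (day 4), 7.12 and 9.09 (day 6) and 8.41 and 8.55 (day 8). The sorted arrays were above the day 0 arrays, but replicate 1 of day 6 by only 0.36 over the higher of them. The difference between the 2 arrays was 1.51 at day 4 and 1.96 at day 6, larger than the change against day 0 itself, which was 1.41 ± 0.69 at day 4 and 1.37 ± 0.69 at day 6. At day 8, where the 2 arrays lay 0.14 apart, the change was 1.75 ± 0.69.

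THBD was measured by 3 probe sets, and these showed one pattern. Probe set 203887_s_at had log2 levels of 6.72 and 6.54 (day 0), 11.21 and 11.52 (day 4), 11.65 and 10.31 (day 6) and 10.81 and 10.54 (day 8). Here replicate 1 of day 6 was the highest of all arrays, whereas for CD93 and CLEC14A it was the lowest of the sorted arrays. Probe set 203888_at had 6.77 and 6.60 (day 0), 10.47 and 10.38 (day 4), 10.61 and 9.43 (day 6) and 9.98 and 9.68 (day 8). Probe set 237252_at had 5.96 and 5.89 (day 0), 8.86 and 8.71 (day 4), 9.56 and 7.53 (day 6) and 8.03 and 7.81 (day 8). With all 3, replicate 1 of day 6 was the highest array, and both day 8 arrays were below both day 4 arrays. The change at day 4 against day 0 was 4.73 ± 0.42, 3.74 ± 0.37 and 2.86 ± 0.58 (SE) by the 3 probe sets.

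CD248, the stromal member of the receptor group, kept a nearly level signal. Its probe set 219025_at had log2 levels of 8.63 and 8.52 (day 0), 8.36 and 8.16 (day 4), 8.61 and 8.41 (day 6) and 8.34 and 8.43 (day 8). All 8 values lay within 0.48 of each other, and the day 6 arrays overlapped the day 0 arrays. The change against day 0 was -0.31 ± 0.16 (SE) at day 4, -0.07 ± 0.16 at day 6 and -0.19 ± 0.16 at day 8. At day 8 the 95% interval ran from -0.58 to 0.19. No detection call was used, so whether the level stands for CD248 RNA or for background of this probe set was not tested.

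MMRN2 was far higher in sorted cells by both probe sets that were tested. Probe set 236262_at had log2 levels of 5.72 and 5.77 (day 0), 11.94 and 12.36 (day 4), 12.10 and 12.46 (day 6) and 12.14 and 12.22 (day 8). The 6 sorted arrays lay within 0.53 of each other, and the lowest of them was 6.17 above the higher day 0 array. Probe set 219091_s_at had 6.53 and 6.39 (day 0), 10.94 and 11.54 (day 4), 10.54 and 11.41 (day 6) and 11.34 and 11.17 (day 8). The third, 222822_s_at, lay between 5.84 and 6.10 on all 8 arrays, below the array median on each, and was not tested. Its sorted arrays all lay above both day 0 arrays, as with the other 2 probe sets, but the lowest by only 0.07. It thus shared their direction without a rise of their size. The change at day 4 against day 0 was 6.41 ± 0.22 by 236262_at and 4.78 ± 0.34 (SE) by 219091_s_at.

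MMRN1, the multimerin of platelets and endothelium, followed CD93 over the arrays. Probe set 205612_at had log2 levels of 5.64 and 5.62 (day 0), 9.09 and 9.98 (day 4), 8.55 and 10.42 (day 6) and 10.30 and 10.35 (day 8). Replicate 1 of day 6 and then replicate 1 of day 4 were the lowest of the sorted arrays. The day 8 arrays lay above both day 4 arrays and between the 2 day 6 arrays. The change against day 0 was 3.90 ± 0.59 at day 4, 3.85 ± 0.59 at day 6 and 4.69 ± 0.59 (SE) at day 8.

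**Figure D1:**
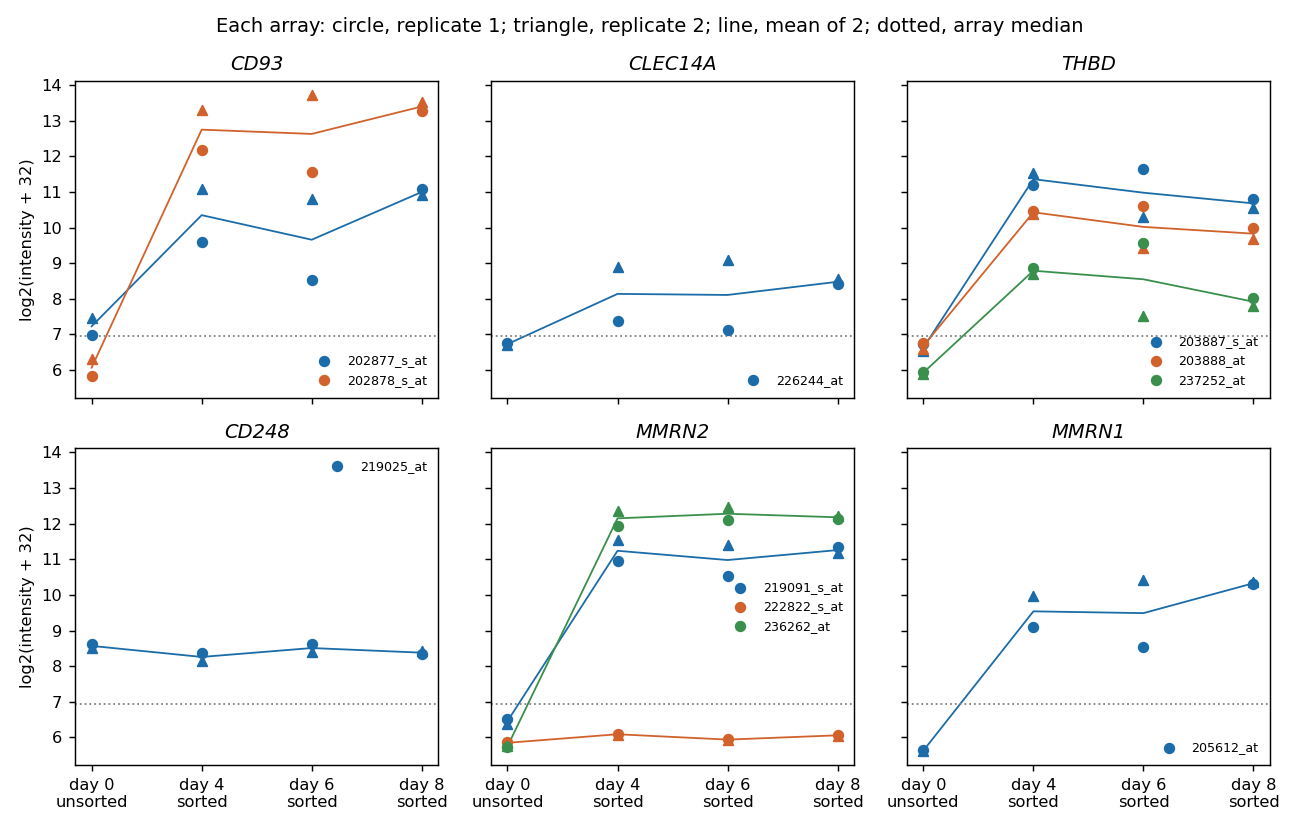
Log2(intensity + 32) of every member probe set on each array, by day. Circles and triangles are replicates 1 and 2, lines join the means of 2 arrays, and the dotted line is the mean of the array medians. CD93 probe set 202878_s_at and MMRN2 probe set 236262_at reach log2 levels above 11 on every sorted array, CD248 stays between 8.16 and 8.63, and MMRN2 probe set 222822_s_at stays below the array median throughout.

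The group was chosen by its rise in sorted cells: CD93 and MMRN2 were known to be among the largest changes at day 4 against day 0 when it was drawn up. The changes against day 0 are therefore a description with no test. The filter favoured a rise as well. All tested members but CD248 and CD93 202877_s_at were above the array median on the 6 sorted arrays only. Of the 10 probe sets measured above the filter, 9 had both sorted arrays above both day 0 arrays at day 4, 9 at day 6 and 9 at day 8, where 32.2%, 31.2% and 37% of all probe sets tested did so. The exception on each day was CD248, with both arrays below both day 0 arrays at day 4 and day 8, as 29.6% and 38.4% of all probe sets had, and overlapping them at day 6, when 32.4% were below. The changes ran from -0.31 to 6.68 at day 4, from -0.07 to 6.56 at day 6 and from -0.19 to 7.33 at day 8. On the linear scale of intensity + 32, CD93 probe set 202878_s_at was 102-fold, 94.4-fold and 161-fold higher at day 4, day 6 and day 8. MMRN2 probe set 236262_at was 84.8-fold, 93-fold and 86.7-fold higher, THBD probe set 203887_s_at 26.6-fold, 20.3-fold and 16.5-fold, and MMRN1 15-fold, 14.5-fold and 25.9-fold. CLEC14A was 2.66-fold, 2.59-fold and 3.36-fold higher. CD93 probe set 202878_s_at, both tested MMRN2 probe sets, MMRN1, CLEC14A and the THBD probe sets were under the median of either day 0 array, so that their folds depend on the offset of 32. With an offset of 1, and with one 4 times 32, the change at day 4 was 7.59 and 5.41 for CD93 202878_s_at, 7.64 and 4.96 for MMRN2 236262_at, 5.26 and 2.53 for MMRN1, and 1.71 and 0.94 for CLEC14A. Without the 2 arrays that stood apart, the changes at day 4 and day 6 against day 0 were 7.24 and 7.64 for CD93 202878_s_at, 2.16 and 2.36 for CLEC14A, 4.35 and 4.79 for MMRN1, and 6.62 and 6.72 for MMRN2 236262_at. They were 4.88 and 3.67 for THBD 203887_s_at, 3.86 and 3.56 for CD93 202877_s_at and 5.08 and 4.95 for MMRN2 219091_s_at. With these arrays left out, only 1 array remained at day 4 and 1 at day 6. The probe sets of CD93 then had opposite orders of day 6 and day 4, and so did those of MMRN2. For MMRN2 the differences were only 0.10 (236262_at) and -0.13 (219091_s_at). Single arrays cannot settle an order of days.

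**Figure D2:**
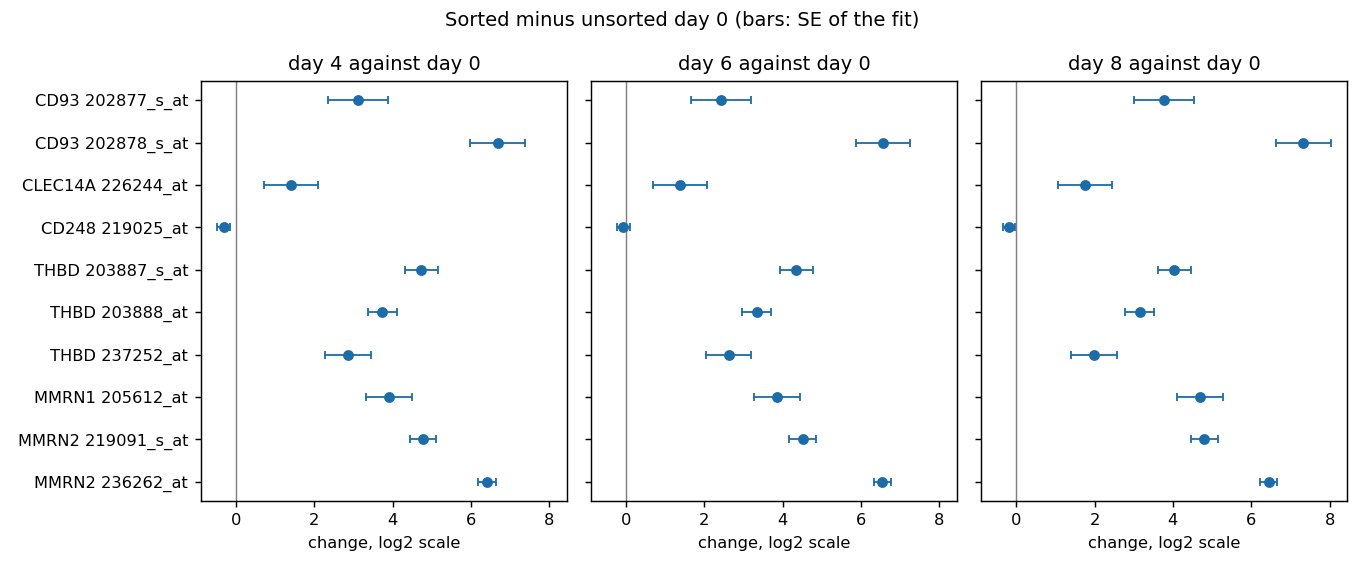
Change of each tested member probe set in sorted cells against unsorted day 0 cells, on the scale of log2(intensity + 32), at day 4, day 6 and day 8. Points are differences of means of 2 arrays and bars the SE of the fit over all probe sets. CD248 lies at 0 or just below on each day, while the other 9 probe sets lie between 1.37 and 7.33.

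Within the sorted gate the question was whether the members moved between day 4 and day 8. None passed the test. In limma, 0 of the 10 probe sets were called for day 8 against day 4, 0 for day 6 against day 4 and 0 for day 8 against day 6, and 0% of all 30343 probe sets tested were called in each. At an unadjusted p under 0.05 the members again gave 0 in each, against 6.23%, 5.67% and 2.06% of all probe sets. The lowest unadjusted p of a member was 0.129, for CD93 probe set 202877_s_at at day 8 against day 6 (adjusted p = 0.993, limma), a difference of 1.34 that ran from 0.21 to 2.47 with 1 array left out.

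THBD was the one member gene with both day 8 arrays below both day 4 arrays. This held for its 3 probe sets and for 20.7% of all probe sets tested. The mean log2 level of 203887_s_at was 10.68 ± 0.19 at day 8 and 11.36 ± 0.22 at day 4 (SD, n = 2 arrays each), a difference of -0.69 with a 95% interval from -1.69 to 0.32 (adjusted p = 0.748, limma). For 203888_at the difference was -0.60 (interval -1.49 to 0.30, adjusted p = 0.75, limma) and for 237252_at it was -0.87 (interval -2.25 to 0.52, adjusted p = 0.754, limma). Probe sets of 1 gene share the RNA and are not replicates. THBD kept this sign in each alternative tried, none of which passed, with values between -0.98 and -0.44 over the 3 probe sets. With both day 8 arrays below both day 4 arrays, no array subset, offset or filter could turn the sign. Its constancy therefore adds nothing to that order.

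MMRN1 was the one member with both day 8 arrays above both day 4 arrays, which 16.1% of all probe sets showed. Its mean was 10.33 ± 0.04 at day 8 and 9.54 ± 0.63 at day 4 (SD, n = 2 arrays each), a difference of 0.79 with an interval from -0.62 to 2.20 (adjusted p = 0.762, limma). Without replicate 1 of day 4 and of day 6 the difference was 0.34. The CD93 difference for day 8 against day 4 was 0.65 by each probe set, with intervals from -1.03 to 2.33 for 202878_s_at and from -1.20 to 2.51 for 202877_s_at. Without those 2 arrays it was 0.09 and -0.09. CLEC14A differed by 0.34 (interval -1.32 to 2.01), and by -0.42 without them. Leaving out the lower day 4 array could only lower these differences. With 1 array left out at a time they reached 1.40 (CD93 202877_s_at), 1.21 (CD93 202878_s_at) and 1.10 (CLEC14A). So 2 arrays cannot say whether the higher means of CD93 and CLEC14A at day 8 rest on a low day 4 array.

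MMRN2 and CD248 had the narrowest intervals. MMRN2 probe set 236262_at differed by 0.03 at day 8 against day 4 (interval -0.49 to 0.56) and 219091_s_at by 0.02 (interval -0.79 to 0.83). CD248 differed by 0.12 (interval -0.26 to 0.51). For CD248 and both MMRN2 probe sets a 2-fold difference between day 8 and day 4, which is 1 on this scale, lies outside the interval. For CD93, CLEC14A and MMRN1 it lies inside, as does a 2-fold fall for the THBD probe sets. The intervals take 1 variance over all groups and can be too narrow where day 4 or day 6 enters, so they do not exclude such a difference. For day 6 against day 4 the differences of the 10 probe sets ran from -0.69 to 0.25 and for day 8 against day 6 from -0.63 to 1.34. The 1.34 belongs to CD93 202877_s_at, and was 0.21 without the 2 arrays that stood apart. In these comparisons CD248 (day 6 above day 4) and CD93 202877_s_at (day 8 above day 6) did not overlap, as 10% and 12.3% of all probe sets above and 14.7% and 12.7% below did not. The THBD differences turned positive for day 8 against day 6 when the 2 arrays that stood apart were left out, at 0.37, 0.40 and 0.39.

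**Figure D3:**
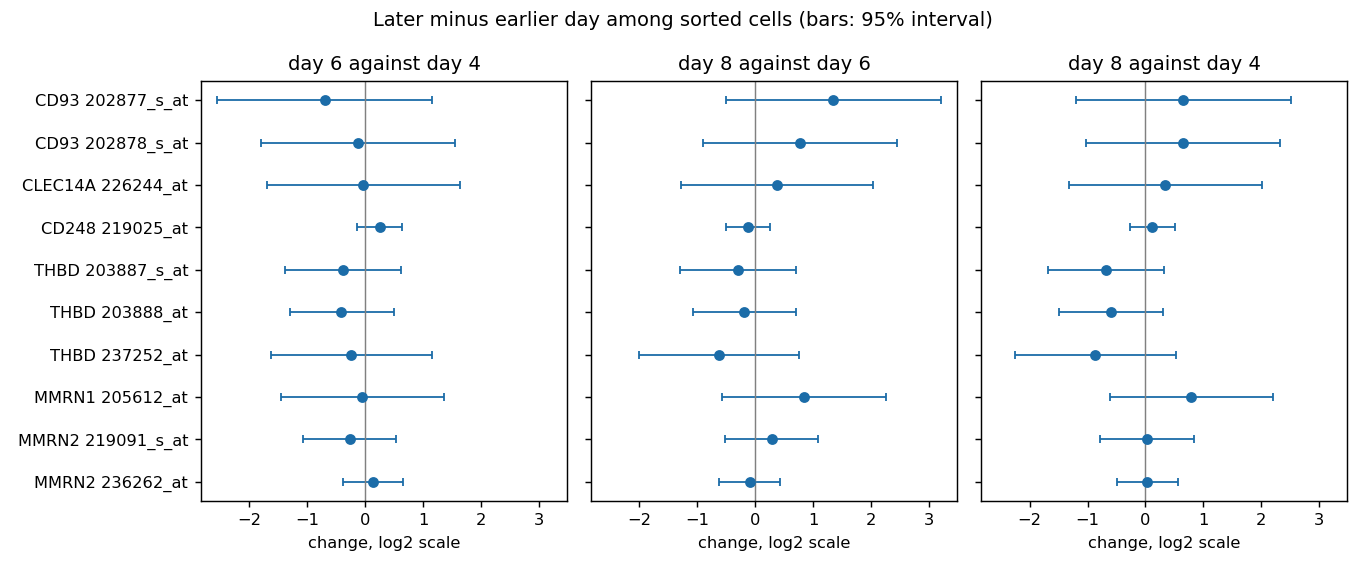
Difference of each tested member probe set between days within the sorted gate, later minus earlier, with 95% intervals from the limma fit. Each interval includes 0. The 3 THBD probe sets lie between -0.87 and -0.60 for day 8 against day 4, and MMRN2 and CD248 have the shortest bars.

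The clearest pattern among the members inside the gate lay between the 2 arrays of a day. At day 6 replicate 2 was above replicate 1 by 2.16 and 2.26 for the 2 CD93 probe sets, by 1.96 for CLEC14A and by 1.87 for MMRN1. For MMRN2 it was above by 0.87 (219091_s_at) and 0.36 (236262_at). For THBD replicate 2 was below replicate 1, with differences of -1.34, -1.18 and -2.03 for the 3 probe sets. At day 4 the differences were 1.48 and 1.12 for CD93, 1.51 for CLEC14A and 0.89 for MMRN1, and 0.31, -0.10 and -0.15 for THBD, so that the 2 neighbouring genes CD93 and THBD parted at day 6 and less so at day 4. At day 8 no member differed by more than 0.30 between its arrays. Over the 6 sorted arrays, which share line and gate, Pearson's r was 0.99 between CD93 202878_s_at and MMRN1 and 0.96 between CD93 and CLEC14A. It was -0.75, -0.83 and -0.91 between CD93 and the THBD probe sets. Between CD93 and MMRN2 it was 0.73 for 236262_at and 0.91 for 219091_s_at. These values describe 6 arrays, rest in part on the 2 that stood apart, and were not computed over the other 4. No test was made on them.

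**Figure D4:**
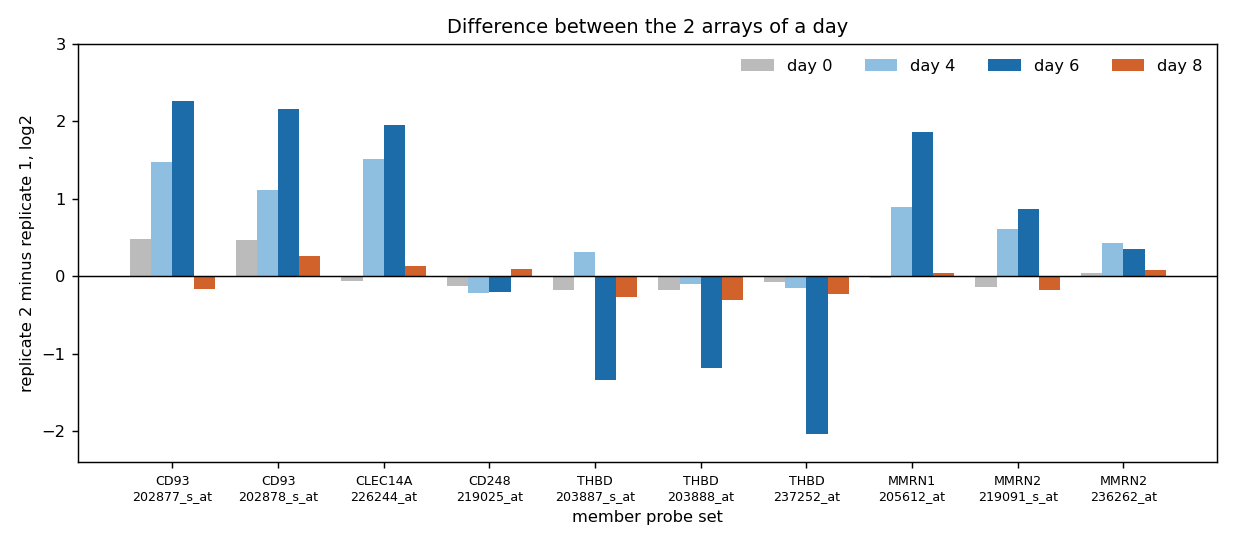
Replicate 2 minus replicate 1 of each tested member probe set at each day, as a difference of log2(intensity + 32). At day 6 the bars of CD93, CLEC14A and MMRN1 reach 1.87 to 2.26 upward and those of THBD 1.18 to 2.03 downward, while the day 8 bars stay within 0.30.

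Markers of other cells moved with these arrays. The summed intensity of 15 pericyte and fibroblast markers was 46982 and 29522 (day 4), 43782 and 24268 (day 6) and 29632 and 24231 (day 8) in replicate order, against 42287 and 41981 in unsorted cells. It was thus highest on the 2 arrays that stood apart. Of 14 tested genes of this list, which also bears on CD248, 2, 1 and 2 rose and 7 fell on each of the 3 sorted days against day 0. TAGLN, a smooth muscle actin binder, COL1A1, a collagen, and LOX, which crosslinks collagen, fell by 3.44, 3.34 and 3.26 at day 4 (adjusted p = 0.0289, 0.0219 and 0.0136, limma), and RGS5, a pericyte marker, rose by 3.47 (adjusted p = 0.00152, limma). The sum of 18 endothelial markers was 67470 and 86391 (day 4), 57881 and 89080 (day 6) and 80387 and 75267 (day 8), against 3611 and 3296 in unsorted cells, lowest among sorted cells on the same 2 arrays. The sum of 8 yolk sac endoderm markers was 3226 and 23052 (day 4), 778 and 7020 (day 6) and 13370 and 10255 (day 8), against 1149 and 1177 in unsorted cells, and 0 of its 7 tested genes passed on any day. The part of these cells, and of RNA integrity, in the differences of CD93, CLEC14A, MMRN1 and THBD was not tested.

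Platelets store MMRN1, and their markers were followed beside it. The sum over 13 genes was 1607 and 2059 (day 4), 1361 and 2493 (day 6) and 13476 and 2997 (day 8), against 1576 and 1556 in unsorted cells. PPBP, a platelet chemokine, was at 11.63 and 5.99 on the 2 day 8 arrays and PF4, another, at 12.84 and 9.72, whereas MMRN1 was at 10.30 and 10.35 on them. PPBP lay below the array median on the other 7 arrays and TUBB1, the platelet tubulin, on all 8. Of the 10 genes tested, 0, 0 and 2 rose on the 3 sorted days, against day 0. The 2 were ITGA2B, an integrin subunit of platelets, with 1.66, and TREML1, a receptor of platelet granules, with 0.46 (adjusted p = 0.0187 and 0.0451, limma). ITGA2B had log2 levels of 9.72 and 9.19 at day 8 and GP1BA, a platelet glycoprotein, 8.88 and 8.62. These differed less between the 2 arrays than PPBP and PF4 did, but more than MMRN1 did. Of the 10, 7 had both day 8 arrays above both day 4 arrays, as MMRN1 and 16.1% of all probe sets had. The part of platelet RNA in the MMRN1 signal was not tested. PPBP, PF4 and GP1BA were picked for mention after their values were seen.

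Among 9 markers of lymphatic endothelium, where MMRN1 is also found, 1 rose at day 4, 2 at day 6 and 5 at day 8 against day 0, and 1 fell at day 8. PROX1, the factor that specifies lymphatic endothelium, had log2 levels between 7.17 and 7.83 on all 8 arrays and passed in no comparison with day 0. NRP2, a VEGF coreceptor, FLT4, the receptor of VEGFC, and STAB1, a scavenger receptor, had the largest rises at day 8, of 3.07, 3.28 and 2.39 (adjusted p = 0.000153, 0.015 and 0.0361, limma). PDPN, or podoplanin, fell by 3.08 (adjusted p = 0.0378, limma). LYVE1 and STAB2 also rose, by 1.69 and 1.65 (adjusted p = 0.00279 and 0.0103, limma), and each was above the array median on only 2 arrays. Of the 9 markers, 5 had both day 8 arrays above both day 4 arrays and 1 had both below, where 16.1% and 20.7% of all probe sets did. The part of lymphatic endothelium in the MMRN1 signal was not tested.

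Myeloid cells also carry CD93 and THBD. Of 13 myeloid markers with a probe set, 6 passed the filter, and CD14, SPI1, S100A9, AIF1 and PTPRC lay below the array median on all 8 arrays. The sum of the list was 4871 and 4519 (day 4), 3598 and 6108 (day 6) and 7877 and 6827 (day 8), against 723 and 697 in unsorted cells. Of the 6, 2 rose at day 4, 1 at day 6 and 3 at day 8, against day 0. LAPTM5, a lysosomal protein of blood cells, had the largest change of the list, with a change of 5.40 at day 4, 5.39 at day 6 and 5.71 at day 8 (adjusted p = 0.00019, 0.000183 and 0.000152, limma). LYZ, or lysozyme, rose by 3.76 at day 8, where its log2 levels were 11.22 and 7.99 (adjusted p = 0.0319, limma). FCER1G, a signalling chain of Fc receptors, rose by 0.80 at day 4 and 0.98 at day 8 (adjusted p = 0.0332 and 0.0141, limma). MPO, a granule enzyme, was at 9.80 and 6.86 on the day 8 arrays. The part of myeloid cells in the CD93 and THBD signals was not tested. Of 8 trophoblast markers, cells that carry thrombomodulin, 1 rose and 2 fell on each day, with a summed intensity between 2328 and 3110 on sorted arrays, against 2914 and 2740 at day 0. GATA3 rose by 1.82 at day 4, and TFAP2C and TFAP2A, also transcription factors, fell by 2.94 and 2.93 (adjusted p = 0.00237, 0.00187 and 0.000942, limma).

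**Figure D5:**
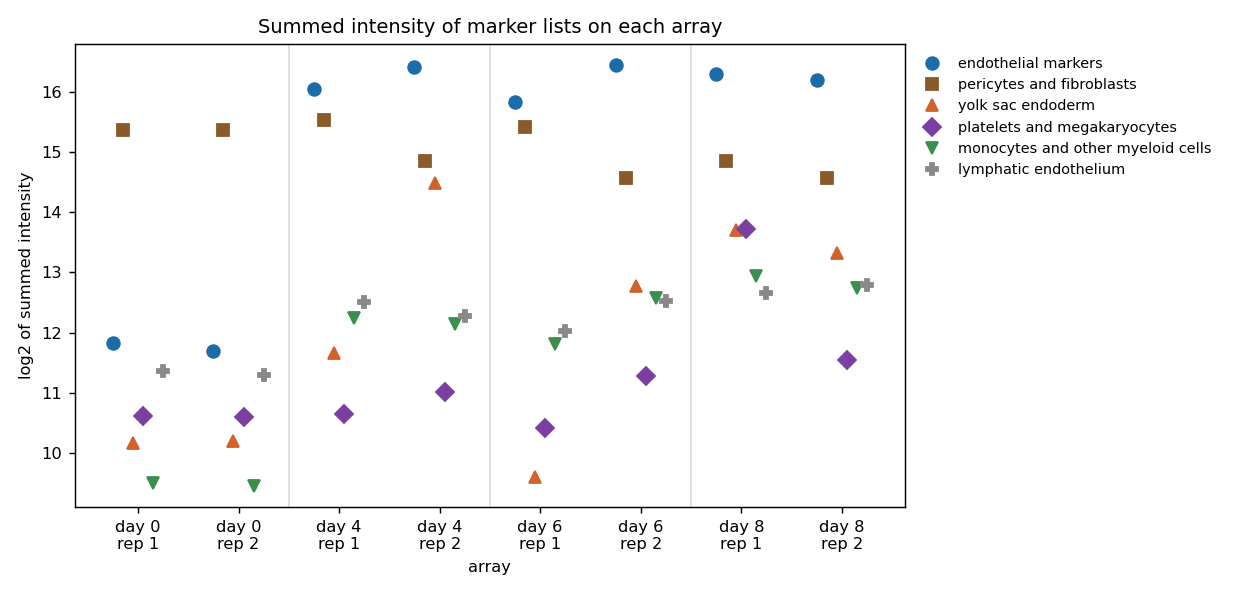
Log2 of the summed intensity of 6 marker lists on each array, with points of 1 array set slightly apart. Endothelial markers stand between 15.82 and 16.44 on the sorted arrays, pericyte and fibroblast markers are highest on replicate 1 of day 4 and of day 6, and the platelet list is highest on replicate 1 of day 8.

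The partners of these receptors were compared with day 0 in the same fit. Of 12 genes with a probe set, out of 15 listed, whose proteins bind CD93, CLEC14A, CD248 or MMRN2 or act beside them, 3 rose and 1 fell at day 4, 4 rose and 1 fell at day 6, and 4 rose and 2 fell at day 8. The median changes were 0.62, 0.54 and 0.81. KDR, which the sort selects for, changed by 4.59 at day 4, ITGA5, the fibronectin receptor subunit, by 1.86 and MSN, the cytoskeletal linker moesin that binds the CD93 tail, by 1.67 (adjusted p = 3.03e-05, 0.034 and 0.00824, limma). LGALS3BP, a secreted protein reported to bind CD248, fell by 2.70 (adjusted p = 0.000415, limma). IGFBP7, a matrix ligand of CD93, had log2 levels of 10.29 and 6.71 (day 4), 10.63 and 7.25 (day 6) and 9.33 and 8.73 (day 8), against 12.27 and 12.23 in unsorted cells, and its change at day 4 of -3.75 did not pass (adjusted p = 0.133, limma). FN1, or fibronectin, differed by -0.58 and did not pass (adjusted p = 0.126, limma).

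In the protein C and thrombin pathway, where THBD acts, 7 of 11 tested genes rose and 1 fell at day 4, and 6 rose and 1 fell at day 6 and at day 8. F2RL2, a thrombin receptor, TFPI, the inhibitor of tissue factor, and PROS1, the cofactor of activated protein C, had the largest changes at day 4, of 4.45, 4.10 and 3.03 (adjusted p = 3.03e-05, 7.51e-05 and 0.00023, limma). F3, or tissue factor, fell by 2.16 (adjusted p = 0.0052, limma). PROCR, the endothelial protein C receptor that works with THBD, was named after its values were seen, and its log2 levels were 9.02 and 9.15 (day 0), 12.10 and 11.27 (day 4), 11.73 and 10.98 (day 6) and 11.24 and 11 (day 8). Of the 11 genes, 6 had both day 8 arrays below both day 4 arrays and 1 had both above, where 20.7% and 16.1% of all probe sets did. F5, the cargo of MMRN1, stayed between 6.80 and 6.97 on all 8 arrays, and PROC, which encodes protein C itself, did not pass the filter.

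Near relatives of the members were followed in the same way. Of 5 other genes with an EMILIN-type domain, 0 rose at day 4 or day 6 and 1, EMILIN3, fell by 0.46 at day 4 (adjusted p = 0.0382, limma) and by 0.48 at day 6 (adjusted p = 0.0278, limma), and 1, EMILIN1, rose by 0.87 at day 8 (adjusted p = 0.0326, limma). The list medians were 0.29, 0.08 and 0.05. Of 12 tested genes of other C-type lectins, 4 rose and 1 fell at day 4, 5 rose and 1 fell at day 6, and 6 rose and 1 fell at day 8. MRC1, the mannose receptor, CLEC1A, an endothelial lectin, and COLEC12, a scavenger receptor of vessels, had the largest changes at day 4 among those that rose, of 4.73, 3.4 and 2.5 (adjusted p = 0.000994, 0.000841 and 0.00148, limma). VCAN, or versican, fell by 1.99 (adjusted p = 0.0122, limma).

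Of 12 transcription factors reported to act on these genes or on endothelium, 10 rose on each day against day 0, with a median change of 3.55, 3.58 and 3.62. ERG, FLI1 and SOX7 had the largest changes at day 4, of 6.43, 6.01 and 5.96 (adjusted p = 3.03e-05 for each, limma). KLF2, a flow-responsive factor known to raise THBD in endothelium, was named after its values were seen, and its log2 levels were 9.01 and 8.92 (day 0), 11.64 and 12.51 (day 4), 11.16 and 11.50 (day 6) and 10.92 and 11.53 (day 8). Of the 12 factors, 2 had both day 8 arrays below both day 4 arrays and 2 had both above, where 20.7% and 16.1% of all probe sets did. KLF4, the other flow-responsive factor of the list, was at 11.13 and 11.04 at day 0. It was between 8.32 and 10.61 on the sorted arrays, and did not pass on any day. None of the 13 lists held a gene that passed in a comparison between sorted days.

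For each member the 3 genes with the most similar course were found by Pearson's r over the 8 arrays, which mostly measures the step from day 0 to sorted cells. They were SNRK, GIMAP8 and PLXND1 for CD93 (r = 0.998, 0.998 and 0.996), and PLXND1, IRAK1 and EGF for MMRN1 (r = 0.999, 0.998 and 0.997). For MMRN2 they were MEF2C, JAM3 and RASGRP3 (r = 0.999 each) and for THBD SVIP, HAPLN1 and ZEB2 (r = 0.998, 0.994 and 0.992). For CLEC14A they were SLCO6A1, EFCAB14 and ARGLU1 (r = 0.997, 0.996 and 0.994) and for CD248 SYNC, PPP2R3A and RNPS1 (r = 0.963, 0.955 and 0.955). Among the other genes tested, MMRN1 stood at place 20 in likeness to CD93 (r = 0.993), MMRN2 at 126 (r = 0.982), THBD at 825 (r = 0.913), CLEC14A at 1364 (r = 0.846) and CD248 at 10066 (r = -0.662). Over the 6 sorted arrays alone the 3 genes nearest to THBD were SKIL, IDH1 and S1PR3 (r = 0.992, 0.991 and 0.985), and MARCKSL1, PLXND1 and COL4A2 were nearest to MMRN1 (r = 0.999, 0.999 and 0.996). CD93 was then nearest to PRKXP1, LMNTD2-AS1 and CACNB1 (r = 0.998, 0.996 and 0.996), CLEC14A to LINC00965, PRDM16 and SLCO6A1 (r = 0.999, 0.996 and 0.996), MMRN2 to YTHDC1, NUFIP2 and KLC1 (r = 0.997, 0.984 and 0.983), and CD248 to SYNC, WWP2 and SH3GLB1 (r = 0.986, 0.982 and 0.979). These are descriptions over 6 arrays that share gate and line.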

How the data were processed

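RNA was extracted with Trizol and labelled as biotinylated cRNA for Affymetrix arrays, per the labels' protocols. The authors deposited linear intensity values for each probe set, made with MAS5 per the submitters' processing notes, which give no version. No scaling was added. Groups and replicate numbers come from sample titles; the source names of 3 day 6 and day 8 samples give day 4, against their titles and stages. Of 54675 probe sets, 62 were controls, and the platform annotation gave 1 symbol for 41091.

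Values were taken as log2(intensity + 32) and fitted with limma 3.58.1 in R 4.3.3 on the 8 arrays together (group means, trended eBayes, two-sided), with Benjamini-Hochberg adjustment over 30343 probe sets above the array median on at least 2 arrays, called at 0.05. Genes of a list are read from their brightest probe set. On simulated data for day 8 against day 4 with 30343 probe sets, changes of 1, 2 and 3 were recovered in 29.9%, 70.1% and 86.4% of cases. These were 20 of 67, 47 of 67 and 57 of 66, beside 19 false calls. False calls were thus a larger share of all calls in that simulation than the threshold of 0.05. The fit takes 1 variance per probe set over all groups, whose replicate spread differed. An SE for a comparison with day 4 or day 6 can therefore be too small. The members, the 13 lists (11 of 168 memberships had no probe set with 1 symbol) and the tests were chosen with earlier results of these data known. Genes of the lists were named from KDR, PECAM1, CDH5, calls between sorted days and the 3 largest rises and falls against day 0, not in full for each list and day. PROX1, LYVE1, STAB2, F5, PROC, TUBB1, MPO and the 5 dim myeloid genes were added after their values were seen, as were those so marked. Other offsets, filters, normalizations, probe set rules, array subsets and a replicate block were tried. Figures used Python 3.11.15 and matplotlib 3.10.9.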

Additional observations from a re-analysis of the deposited data

How the results depend on the processing

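Within the sorted gate, 588 alternative values of the member differences were computed and 0 passed the threshold (lowest adjusted p = 0.113, limma), while 43 took the opposite sign. Against day 0, 501 of 501 alternative values of the members other than CD248 stayed positive. Each sorted array of these probe sets lay above both day 0 arrays. No array subset, offset or filter could therefore turn a sign, and the count adds no support. Leaving out replicate 1 of day 4 and of day 6 together turned the sign for day 8 against day 4 in CD93 202877_s_at (-0.09), CLEC14A (-0.42) and MMRN2 219091_s_at and 236262_at (-0.28 and -0.18). For day 6 against day 4 it did so in CD93 202878_s_at (0.40), CLEC14A (0.19) and MMRN1 (0.44). For day 8 against day 6 it did so in CD93 202878_s_at (-0.31), CLEC14A (-0.61), THBD (0.37, 0.40 and 0.39), MMRN1 (-0.09) and MMRN2 219091_s_at (-0.15). That setting called 14 probe sets for day 8 against day 4, and 9063, 11868 and 13273 at day 4, day 6 and day 8 against day 0, where 4370, 5645 and 5849 were called with all arrays. One probe set per gene gave 2516, 3187 and 3345, and a fit of only the day 8 and day 0 arrays gave 13265. Why these counts moved was not tested, other than that fewer features entered with 1 probe set per gene. With 1 array left out at a time, the lone array being assumed to vary like the other groups, the counts ran from 1363 to 5360, from 1726 to 6785 and from 1720 to 7434 against day 0. They ran from 0 to 9 for day 8 against day 4, from 0 to 12 for day 8 against day 6, and were 0 for day 6 against day 4. The lowest came from leaving out a day 0 array (1399 and 1363, 1780 and 1726, 1720 and 1720 without replicate 1 and replicate 2), and without either day 8 array the day 8 count was 2994 and 2228. For day 8 against day 4 the differences ran from -0.09 to 1.40 for CD93 202877_s_at, -0.42 to 1.10 for CLEC14A, -0.28 to 0.32 for MMRN2 219091_s_at and -0.18 to 0.25 for 236262_at. For day 6 against day 4 they ran from -1.82 to 0.44 and -1.20 to 0.96 for CD93, -1.02 to 0.95 for CLEC14A, -1.06 to 0.28, -1 to 0.18 and -1.26 to 0.78 for THBD, -0.98 to 0.88 for MMRN1, and -0.70 to 0.17 and -0.08 to 0.35 for MMRN2. For day 8 against day 6 they ran from 0.21 to 2.47 for CD93 202877_s_at, -0.31 to 1.85 for CD93 202878_s_at, -0.61 to 1.36 for CLEC14A, -0.97 to 0.37, -0.78 to 0.40 and -1.64 to 0.39 for THBD, -0.09 to 1.77 for MMRN1, and -0.15 to 0.72 and -0.28 to 0.08 for MMRN2. With the replicate block the counts were 5332, 7031 and 7742 against day 0 and 0 in each comparison between sorted days. Deviations of same-numbered arrays correlated at 0.61, 0.36 and 0.44 between day 4 and day 6, day 4 and day 8, and day 6 and day 8, and between -0.02 and 0.04 with day 0. The sorted arrays of 1 number thus went together, but with 2 numbers and no label for what a number marks, they were not taken as pairs. With 2 arrays a group, a change of 1 on the log2 scale was recovered in 29.9% of simulated cases, so smaller differences were mostly not detectable. That share is taken over probe sets of unlike spread and was not computed for the members.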
